A study of Mus musculus with 12 samples.

Results

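The 54 collagen and laminin genes of mouse primordial germ cells are described here across embryonic stages and after loss of Tet1. They were chosen by gene symbol alone: every name of the form Col, a number, a and a number (43 collagen genes), or Lama, Lamb or Lamc and a digit (11 laminin genes). They make up 54 of the 22552 entries in each stage table, and 46 of the 16394 entries in the table that compares Tet1-KO with wild type.

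Messenger RNA was sequenced from primordial germ cells, the embryonic precursors of eggs and sperm, of C57BL/6 mice. Wild-type cells came from embryonic day (E) 9.5 and from E11.5, with 2 libraries each. At E13.5 there were 3 wild-type libraries with an m in their titles (E13.5m), 3 wild-type libraries that name no sex, and 2 libraries of genotype Tet1 -/- (Tet1-KO). The authors deposited 1 pooled value per group in FPKM, a read density per unit of transcript length and of sequencing output, which can be compared between genes, so no spread between libraries and no depth can be given for a level. The labels do not say how the Tet1 allele was made. They also do not say whether libraries are from different embryos, so p-values measure only library-to-library spread, which may be technical. A column named E13.5f has no sample title to match. Its levels lay close to those of wild type in the knockout table (a ratio of 0.876 to 1.04 over the 9 collagen and laminin genes at 1 FPKM or more in both), so these columns are not treated as separate evidence.

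The label of the cells was checked on 10 germ cell markers, and 10 of 10 were at 1 FPKM or more in every column. Their sum was 4413 FPKM in wild type against 2845 in Tet1-KO, where Dazl (1491 to 671 FPKM) and Mael (463 to 131 FPKM) were called lower and the other 8 were not called. Tet1 itself, which encodes an enzyme that oxidises methylated cytosine in DNA, was at 6.36 FPKM in wild type against 0.218 in Tet1-KO (log2 ratio -4.87 ± 0.67). The ± on a log2 ratio gives its standard error (SE), worked out from the authors' statistic or p-value. A gene is called higher or lower where the authors' own adjusted p was at or under 0.05. Over all genes that reached 1 FPKM on both sides of a comparison, the median log2 ratio was 0.32 from E9.5 to E11.5, 0.19 from E11.5 to E13.5f, 0.02 from E11.5 to E13.5m and -0.38 in Tet1-KO, and calls that depend on this shift are named as such.

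Collagens are triple helices of alpha chains. Fibrillar collagens form the fibres of connective tissue, collagen IV forms the network of basement membranes, and other families sit on fibrils, in basement membrane zones or in the cell membrane. Laminins are trimers of an alpha, a beta and a gamma chain, and they organise the basement membrane and bind integrins and dystroglycan. Migrating primordial germ cells move from the hindgut through connective tissue and past basement membranes to the gonad, where they become enclosed by somatic cells. Both gene families are expressed widely by mesenchymal, epithelial and endothelial cells.

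Most collagen and laminin genes were at low levels in these cells. At 1 FPKM or more stood 6 of 54 at E9.5, 6 at E11.5, 9 in E13.5f and 6 in E13.5m (11.1, 11.1, 16.7 and 11.1%), against 46.4, 47.1, 50.1 and 48.3% of all entries. Of the 46 with a knockout comparison, 9 reached that level in wild type and 6 in Tet1-KO (19.6 and 13.0%), against 68.0 and 64.9% of all entries. The genes that reached it anywhere were Col18a1, Lamb1, Lamc1, Lamb2, Lama1, Col9a1, Col9a2, Col9a3 and Col13a1, and the other 45 stayed under 1 FPKM in every column. Listed at 0 were 32 of 54 at E9.5, 16 at E11.5, 5 in E13.5f and 11 in E13.5m, against 39.3, 32.0, 27.2 and 28.4% of all entries. This was a larger share than that of all entries at E9.5, and a smaller share in the later groups. An entry at 0 may be a failed estimate, so it is called only listed at 0. Col8a1 was listed at 0 in all 4 stage groups.

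**Figure D1:**
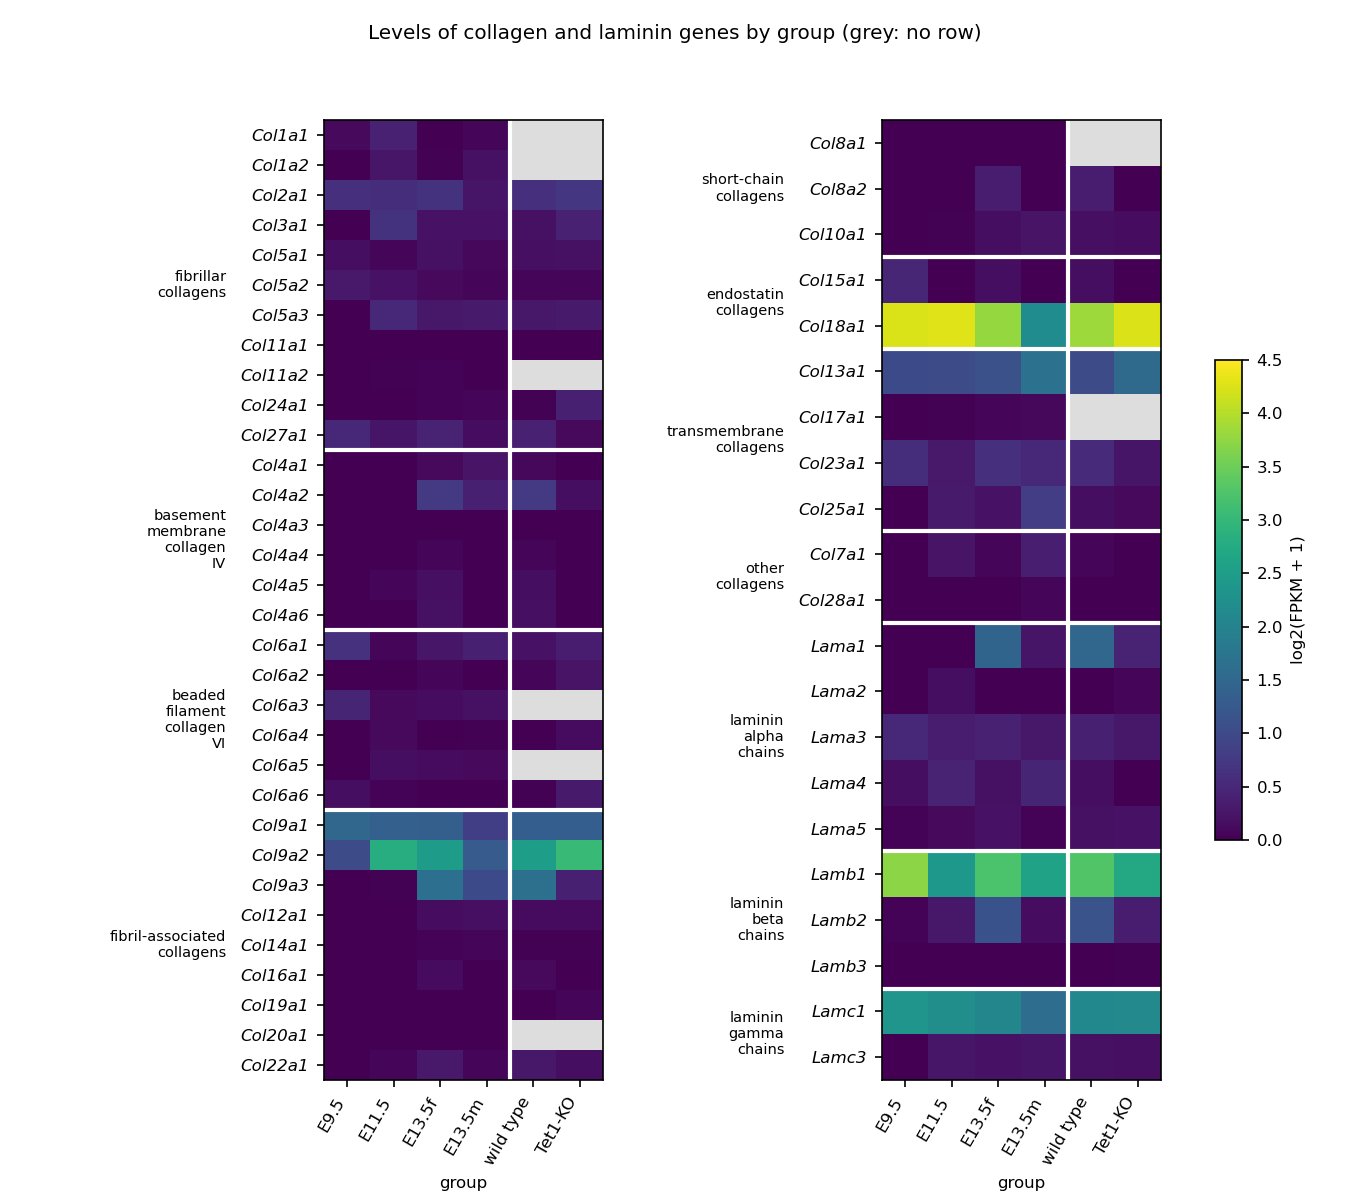
Levels of collagen and laminin genes as log2(FPKM + 1), with genes in rows ordered by role and the 6 groups in columns; grey marks genes with no entry in the knockout table. Col18a1, Lamb1, Lamc1 and Col9a2 stand out, and most other cells are near 0.

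The sum over the 54 genes was 42.3 FPKM at E9.5, 40.4 at E11.5 and 43.1 in E13.5f, and it was lower in E13.5m at 21.6 FPKM. The 3 highest genes of each group held 81.0, 71.2, 59.6 and 49.7% of these sums. Over the 46 genes with a knockout comparison the sum was 43.3 FPKM in wild type, and in Tet1-KO it was 43.3 too. Its parts moved in opposite ways, as given below: Col18a1 (13.3 to 18.3 FPKM) and Col9a2 (4.72 to 7.27 FPKM) were higher in Tet1-KO. Lamb1 (8.71 to 5.53 FPKM) and Col9a3 (2.15 to 0.321 FPKM) were lower. None of these was called. In bulk samples, a change in the number of cells of a type and a change in RNA per cell cannot be told apart.

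The collagens that carry an endostatin domain, Col15a1 and Col18a1, were far apart in level: Col15a1 stayed under 1 FPKM in every column. Col18a1, the collagen XVIII gene of basement membranes, whose released fragment endostatin inhibits vessel growth, was the highest collagen gene in all 6 columns. The promoters of these genes and of Lamb1, the highest laminin gene, are printed because these genes lead the results. They are the bases upstream of a RefSeq start in build GRCm38.p6, 5′ to 3′ on the gene's strand, with bases inside annotated exons left out. Capitals mark GGGCGG or its reverse complement CCGCCC, the letters of a GC box. The search covered both strands.

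Col15a1 (chr4:47207762-47208011, + strand): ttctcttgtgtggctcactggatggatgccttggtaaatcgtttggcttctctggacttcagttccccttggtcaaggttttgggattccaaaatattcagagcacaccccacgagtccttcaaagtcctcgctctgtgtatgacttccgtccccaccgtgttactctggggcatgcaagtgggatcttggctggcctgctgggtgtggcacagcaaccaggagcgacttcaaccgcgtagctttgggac
Col18a1 (chr10:77166549-77166780, - strand): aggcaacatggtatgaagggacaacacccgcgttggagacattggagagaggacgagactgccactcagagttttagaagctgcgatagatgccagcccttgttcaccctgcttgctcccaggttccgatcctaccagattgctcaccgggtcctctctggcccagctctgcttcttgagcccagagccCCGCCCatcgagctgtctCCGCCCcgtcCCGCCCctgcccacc
Lamb1 (chr12:31265043-31265233, + strand): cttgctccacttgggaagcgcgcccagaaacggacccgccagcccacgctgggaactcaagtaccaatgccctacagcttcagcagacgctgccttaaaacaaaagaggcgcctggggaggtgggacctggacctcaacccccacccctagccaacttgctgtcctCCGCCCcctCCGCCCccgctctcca

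The printed Col18a1 stretch holds 3 matches, that of Lamb1 holds 2 and that of Col15a1 holds 0. Col18a1 has another RefSeq start, whose window of 250 bases holds 0 matches and is not printed. Among windows of 250 bases before RefSeq starts, 54.5% of the 44 windows of 40 collagen and laminin genes held a match, against 32.7% of 32851 windows of all genes. The collagen and laminin windows were also richer in G and C (median 59.0 against 52.4%). Over other genes of the family the matches were mixed. Col8a1, listed at 0 in all stage groups, had 4, and Lama5, under 1 FPKM in every column, had 4. Col9a2 had 2 and Col13a1 had 0, both at 1 FPKM or more in every column. A link between matches and level was not tested. Neither a TATAAA nor a CACGTG lies in the 3 printed stretches. A match is a run of letters and not a measured binding site, and no match says only that these letters are not in that window. Lama1, Lamc1 and Col9a3 were not matched in the RefSeq table.

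Col18a1 (chr10:76514923-76629275, build mm9, as are the other gene positions below) was at 18.0 FPKM at E9.5, 18.5 at E11.5, 12.8 in E13.5f and 3.54 in E13.5m. It was at a like level in the first pair of groups, lower in E13.5f and lowest in E13.5m. From E11.5 to E13.5m its log2 ratio was -2.39 ± 0.59, which the authors' deposited table calls lower (adjusted p = 0.00302). It was the only 1 of 13 tested collagen and laminin genes called there, beside a background of 4.88% of 12311 tested genes called in either direction and 1.94% called lower. In E13.5f the log2 ratio against E11.5 was -0.53 ± 0.52, which the authors did not call (adjusted p = 0.554). Col18a1 was at 13.3 FPKM in wild type against 18.3 in Tet1-KO, a log2 ratio of 0.47 ± 0.36 that the authors did not call (adjusted p = 0.447).

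Col15a1 (chr4:47220883-47326037), which encodes the related collagen XV of basement membrane zones, was at 0.393 FPKM at E9.5, 0.0120 at E11.5 and 0.129 in E13.5f, and was listed at 0 in E13.5m. The E9.5 level was the highest of the 6, and still under 1 FPKM. From E9.5 to E11.5 its log2 ratio was -5.04 ± 1.63, called lower in the authors' deposited table (adjusted p = 0.0400). This was 1 of 15 tested collagen and laminin genes, beside a background of 5.63% of 12904 tested genes called and 1.92% called lower. It was at 0.118 FPKM in wild type and listed at 0 in Tet1-KO, which the authors did not call (adjusted p = 0.277).

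Among the laminin alpha chains, Lama1 (chr17:68046604-68171985), the alpha 1 chain of the first laminin of the embryo, was the only member called in 2 of the 4 tables. The high side of these calls is E13.5f and wild type, which are not treated as separate evidence. Lama1 was listed at 0 at E9.5 and at E11.5, at 1.74 FPKM in E13.5f and at 0.190 FPKM in E13.5m. It was therefore above 1 FPKM in E13.5f and in no other stage group. The authors' deposited table calls it higher in E13.5f than at E11.5 (adjusted p = 0.0172), with no log2 ratio given here because E11.5 is at 0. In E13.5m it had no completed test.

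After loss of Tet1, Lama1 was at 0.361 FPKM, against 1.79 in wild type. The log2 ratio was -2.31 ± 0.74, and it is called lower in the authors' deposited table (adjusted p = 0.0363). It was the 1 called among 46 tested collagen and laminin genes, beside a background of 6.16% of 16394 genes called and 5.48% called lower. The call was lost relative to the table's own median of -0.38, where Lama1 had a log2 difference of -1.93 and an adjusted p = 0.130, from the authors' p of 0.0363 up to 0.130 over the alternatives tried. The other 4 alpha chains were between 0.00257 and 0.412 FPKM where they were above 0 in the stage groups. Of these, Lama4, a chain of vessel basement membranes, was at 0.116 FPKM in wild type against 0.00535 in Tet1-KO, which the authors did not call (adjusted p = 0.124).

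The beta chains were led by Lamb1 (chr12:31950158-32014504), the beta 1 chain found in many laminin trimers. It was at 12.2 FPKM at E9.5, 4.27 at E11.5, 8.38 in E13.5f and 5.0 in E13.5m, highest at E9.5 and lowest at E11.5. From E9.5 to E11.5 the log2 ratio was -1.51 ± 0.56, which the authors did not call (adjusted p = 0.0939). Relative to the median of that table, which lay 0.32 above 0, it passed at an adjusted p = 0.0302, against 0.0939 in the test of the authors. From E11.5 the ratio was 0.97 ± 0.57 to E13.5f and 0.23 ± 0.59 to E13.5m, neither called. In Tet1-KO it was at 5.53 FPKM against 8.71 in wild type, a ratio of -0.66 ± 0.44 that the authors did not call (adjusted p = 0.372).

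Lamb2, the beta 2 chain of the mature basement membrane, had a pattern of levels like that of Lama1 but no call. It was at 0.0364 FPKM at E9.5, 0.228 at E11.5, 1.18 in E13.5f and 0.116 in E13.5m. The log2 ratio to E13.5f was 2.38 ± 0.98 (adjusted p = 0.0902 in the authors' deposited table). It was at 1.21 FPKM in wild type against 0.264 in Tet1-KO, a ratio of -2.20 ± 0.94 that the authors did not call (adjusted p = 0.138). Lamb3, a chain of the laminin that anchors skin, was listed at 0 in all stage groups and in wild type.

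Lamc1, the gamma chain shared by most laminins, was at 4.09 FPKM at E9.5, 3.65 at E11.5, 3.20 in E13.5f and 2.04 in E13.5m. It was above 1 FPKM in every group, and its log2 ratios were -0.16 ± 0.62, -0.19 ± 0.61 and -0.84 ± 0.63 in the 3 stage comparisons, none called. Its level was 3.29 FPKM in wild type against 3.35 in Tet1-KO. Thus a beta and a gamma chain were above 1 FPKM in every group, while an alpha chain reached that level in E13.5f and the wild-type column only. Lamc3, another gamma chain, was listed at 0 at E9.5 and was at or under 0.209 FPKM in the other columns.

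**Figure D2:**
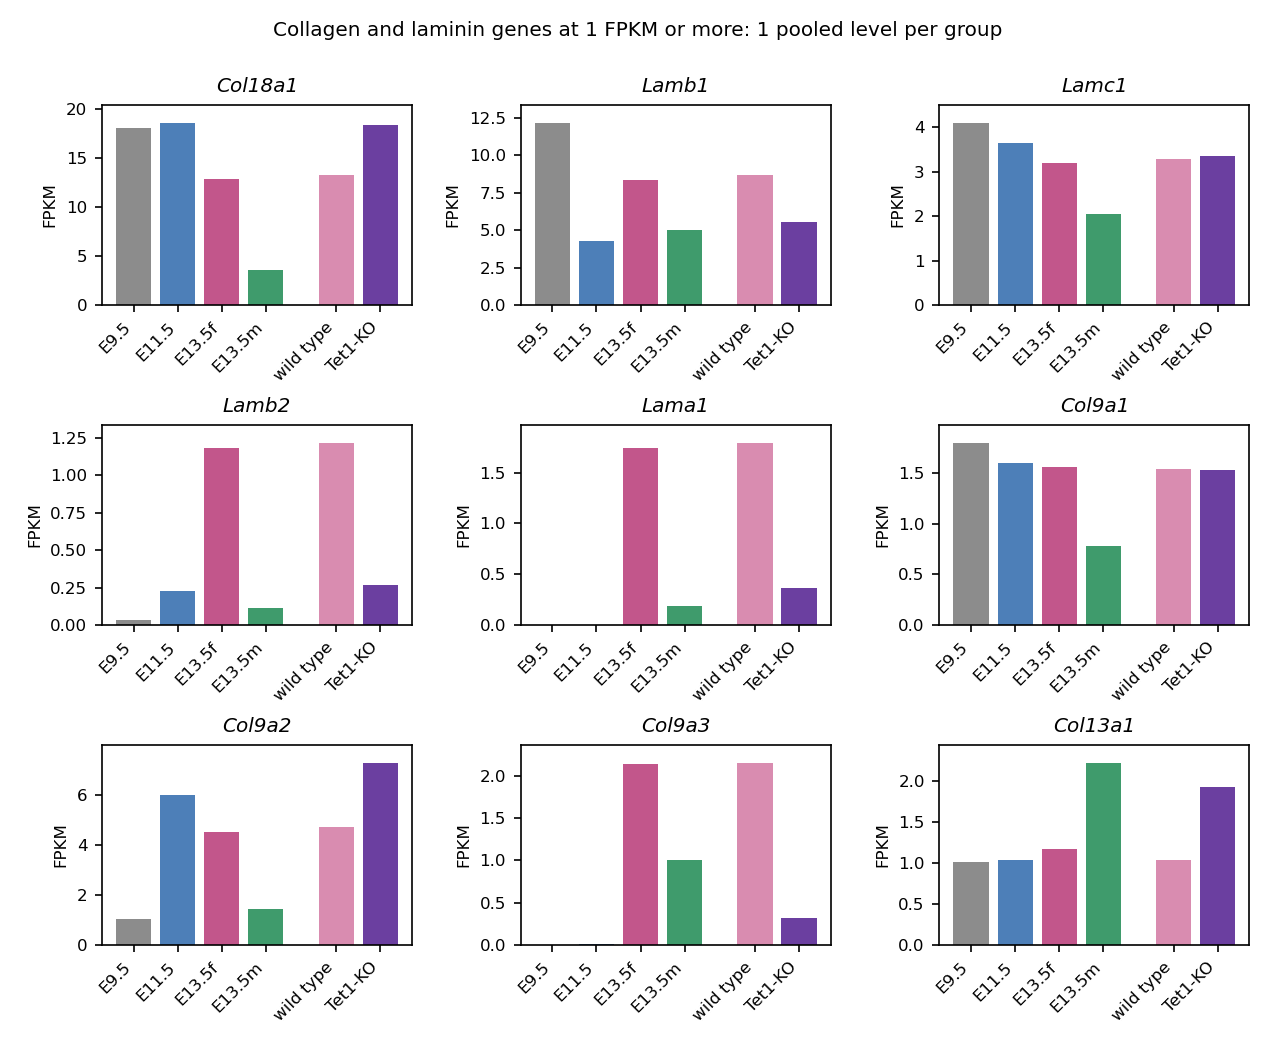
Level in FPKM of the 9 collagen and laminin genes at 1 FPKM or more in any group; each bar is the authors' pooled value of a group, with the knockout table set apart on the right and a separate axis for each gene. Lama1, Lamb2 and Col9a3 are high in E13.5f and wild type, while Lamc1 and Col9a1 vary little outside E13.5m.

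The fibril-associated collagens were mainly collagen IX, a collagen of cartilage fibrils whose 3 chains are encoded by Col9a1, Col9a2 and Col9a3. Their levels did not run in parallel. Col9a1 was at 1.80 FPKM at E9.5, 1.60 at E11.5, 1.56 in E13.5f and 0.781 in E13.5m, with no call in any table. Col9a2 was at 1.04, 5.98, 4.52 and 1.44 FPKM in the same order, highest at E11.5. Its log2 ratios of 2.53 ± 0.98 from E9.5 to E11.5 and -2.06 ± 0.87 from E11.5 to E13.5m were not called by the authors (adjusted p = 0.112 and 0.169). In Tet1-KO Col9a2 was at 7.27 FPKM against 4.72 in wild type, a ratio of 0.62 ± 0.50 that the authors did not call (adjusted p = 0.465).

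Col9a3 was listed at 0 at E9.5, and it was at 0.0161 FPKM at E11.5, 2.14 in E13.5f and 1.01 in E13.5m. Both E13.5 groups stood above both earlier groups. The log2 ratio from E11.5 was 7.06 ± 1.97 in E13.5f, called higher in the authors' deposited table (adjusted p = 0.00686), and 5.97 ± 2.08 in E13.5m, not called (adjusted p = 0.0711). With Lama1, it was 1 of 2 called among 15 tested collagen and laminin genes from E11.5 to E13.5f, beside a background of 12.0% of 12448 genes called and 9.34% called higher. In Tet1-KO Col9a3 was at 0.321 FPKM against 2.15 in wild type, a ratio of -2.74 ± 1.06 that the authors did not call (adjusted p = 0.0962).

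Col9a3 shares its place in the tables (chr2:180332926-180377396) with Tcfl5, a gene for a transcription factor of germ cells. In GENCODE annotation of GRCm38.p6 the genes lie on opposite strands, and their ends overlap by 237 bases (chr2:180621956-180622192). Tcfl5 was at 0.0209 FPKM at E9.5, 0.696 at E11.5, 6.71 in E13.5f and 3.24 in E13.5m, and at 6.90 FPKM in wild type against 3.09 in Tet1-KO. It was called higher from E11.5 to E13.5f as well (adjusted p = 0.00854 in the authors' deposited table). Whether counting used strand is not given in the sources used here, so reads of the overlap cannot be assigned and the Col9a3 level is uncertain. How much of it comes from Tcfl5 was not tested.

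**Figure D3:**
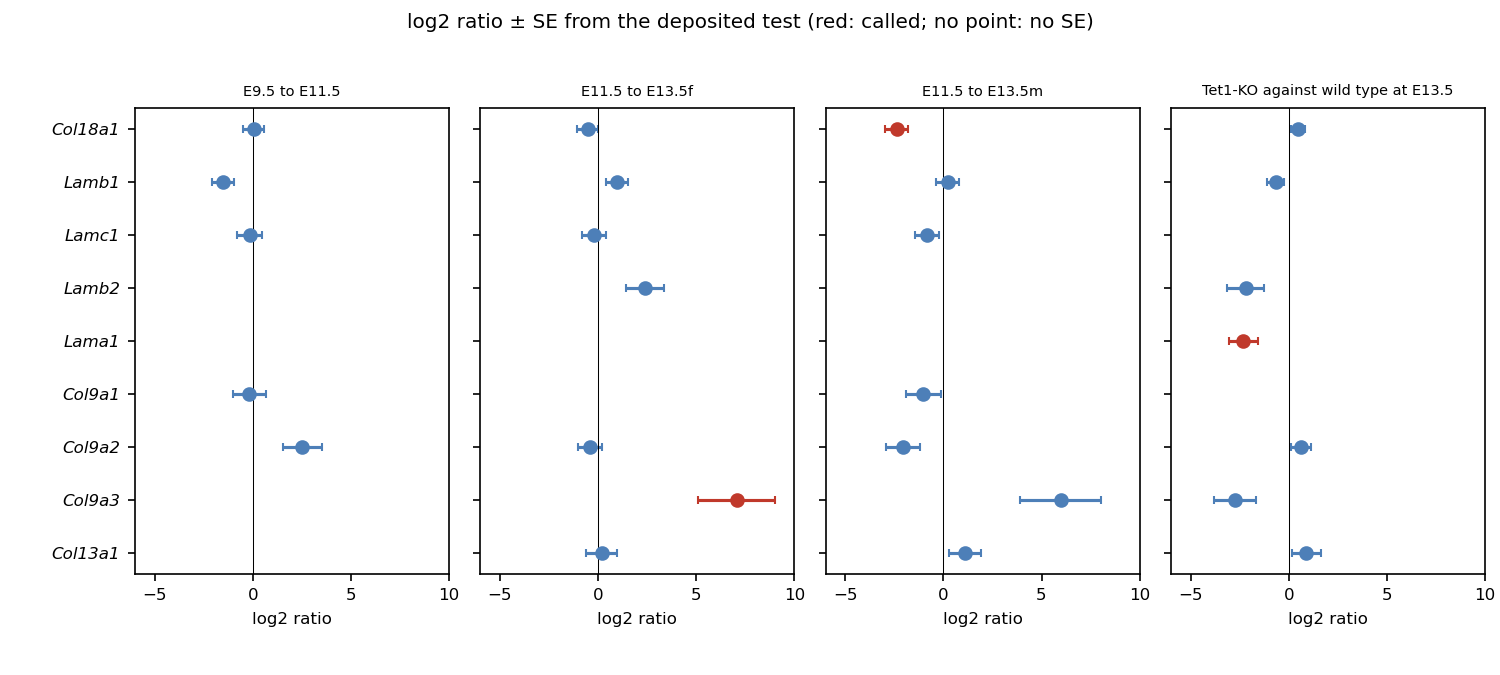
log2 ratio in each of the 4 deposited comparisons for the 9 genes at 1 FPKM or more in any group; points are ratios, bars are ± the SE implied by the deposited test, and red marks a call by the authors. Genes with no point have no SE, which includes Lama1 in the stage comparisons because it was listed at 0 at E11.5; Col18a1 in E13.5m and Col9a3 in E13.5f are the called points of the stage panels, and Lama1 that of the knockout panel.

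The collagens that make up the matrix of connective tissue were low throughout. Over the 11 fibrillar collagen genes the summed level was 1.40 FPKM at E9.5, 2.49 at E11.5, 1.65 in E13.5f and 1.07 in E13.5m, and no gene of the group reached 1 FPKM or was called. Col1a1, a chain of collagen I, the main collagen of skin and bone, was at 0.0843, 0.327, 0.00544 and 0.0379 FPKM in that order. Col1a2, its partner chain, was listed at 0 at E9.5 and was at 0.212, 0.0167 and 0.145 FPKM after that. Col3a1, which encodes collagen III of soft tissues, was listed at 0 at E9.5 and was at 0.580 FPKM at E11.5, 0.168 in E13.5f and 0.159 in E13.5m. All 3 were thus highest at E11.5, and for Col3a1 the authors did not call the difference from E9.5 (adjusted p = 0.0805). Col2a1, the main cartilage collagen, was at 0.521, 0.496, 0.587 and 0.190 FPKM. The 6 collagen VI genes, which form beaded filaments around cells, summed to 1.07 FPKM at E9.5 and 0.384 FPKM at E11.5, with none called.

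Collagen IV, the network collagen of every basement membrane, was low as well. Its 6 genes were all listed at 0 at E9.5, and they summed to 0.0612 FPKM at E11.5, 1.13 in E13.5f and 0.505 in E13.5m. Col4a2 made up most of this, listed at 0 at E9.5 and E11.5 and at 0.708 FPKM in E13.5f and 0.321 in E13.5m (adjusted p = 0.0757 from E11.5 to E13.5f, which the authors did not call). Col4a1, its partner chain in the main trimer, which lies next to it on chromosome 8, was at 0.0883 FPKM in E13.5f and 0.178 in E13.5m, so the pair did not keep the same order of levels. The 6 genes summed to 1.08 FPKM in wild type against 0.135 in Tet1-KO. Each of the 6 levels was below wild type, with Col4a3, Col4a4, Col4a5 and Col4a6 listed at 0, and the authors called none. Col4a2 was at 0.696 FPKM in wild type against 0.126 in Tet1-KO (log2 ratio -2.47 ± 1.12, adjusted p = 0.169 in the authors' table).

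The 4 transmembrane collagens, single-pass membrane proteins with a collagen ectodomain, summed to 1.51 FPKM at E9.5, 1.55 at E11.5, 1.95 in E13.5f and 3.46 in E13.5m, the highest of these. Col13a1, a collagen of cell adhesion sites, led it at 1.01, 1.04, 1.18 and 2.22 FPKM. Its log2 ratio from E11.5 to E13.5m was 1.09 ± 0.82, which the authors did not call (adjusted p = 0.532). In Tet1-KO Col13a1 was at 1.93 FPKM against 1.03 in wild type, a ratio of 0.90 ± 0.76 that the authors did not call (adjusted p = 0.487). Col25a1, a collagen of neurons, was listed at 0 at E9.5 and was at 0.259 FPKM at E11.5, 0.169 in E13.5f and 0.757 in E13.5m.

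Most of the collagen and laminin genes were too low for the authors' test in the stage tables. A test was completed for 15 of 54 from E9.5 to E11.5, 15 from E11.5 to E13.5f and 13 from E11.5 to E13.5m, and for 46 of 46 in the knockout table. In the stage tables a low gene is tested only where at least 1 group is high enough, so counts over tested genes do not speak for all 54. In the knockout table the tested genes include some listed at 0 in both groups, such as Col11a1 and Col28a1. Of the tested genes, 5 were above and 10 below 0 from E9.5 to E11.5, 9 and 6 in E13.5f, and 6 and 7 in E13.5m. In Tet1-KO 18 were above and 26 below. The median change in log2(FPKM + 1) was -0.13 from E9.5 to E11.5, 0.09 to E13.5f, -0.21 to E13.5m and -0.01 in Tet1-KO, against 0.29, 0.22, 0.05 and -0.21 over all tested genes. At an unadjusted p under 0.05 stood 6 of 15, 4 of 15, 3 of 13 and 11 of 46 of them in these 4 comparisons, beside 19.8, 26.5, 17.2 and 21.4% of all tested genes.

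**Figure D4:**
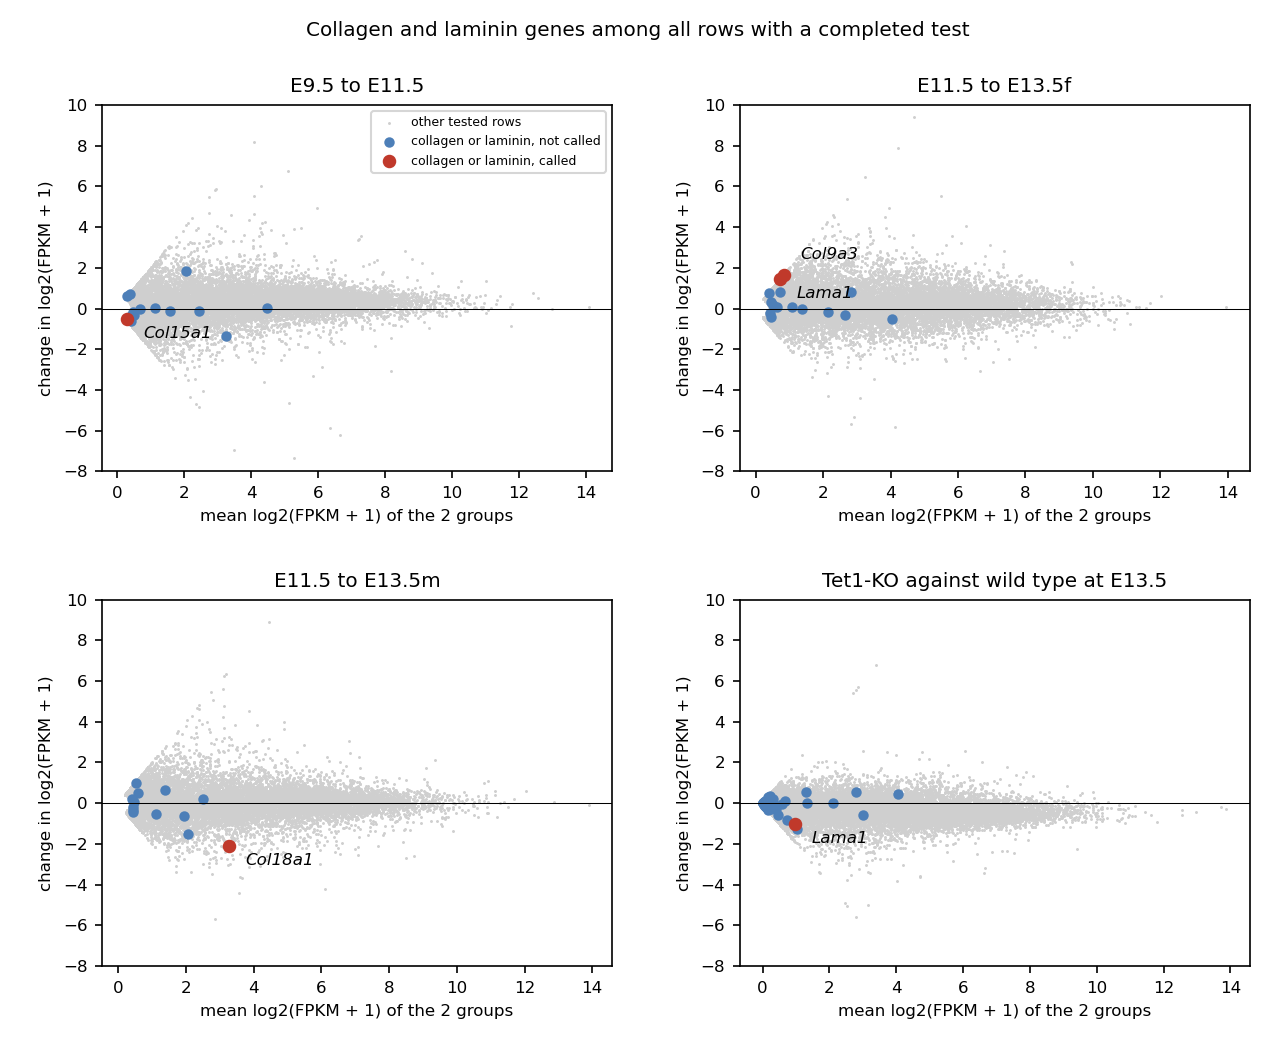
Change in log2(FPKM + 1) between the 2 groups of each comparison (vertical) against the mean log2(FPKM + 1) of both groups (horizontal), for all genes with a completed test; grey points are other genes, blue are collagen and laminin genes not called and red those called. The called genes Col15a1, Col9a3 and Lama1 lie at the low end of the level axis, and Col18a1 lies higher.

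No deposited table compares E13.5m with E13.5f, so the difference of their log2 ratios against the shared E11.5 group was tested (two-sided normal test, Benjamini-Hochberg adjustment over 10677 genes). The E11.5 error is counted in both ratios, which makes the SE too large and the test pass too few genes. A gene that does not pass is therefore not shown to be alike in the 2 groups. None of the 10 collagen and laminin genes with both errors passed, beside a background of 0.169% of all genes, and 1 of the 10 was at an unadjusted p under 0.05, beside 3.76% of all genes. This was Col18a1, lower in E13.5m by a log2 difference of -1.86 ± 0.78 (p = 0.0181, adjusted p = 1.0, computed from the statistics that the authors deposited). The median difference over the 10 was -0.70, against -0.24 over all genes. Lama1 (1.74 FPKM in E13.5f, 0.190 in E13.5m) and Lamb2 (1.18 and 0.116 FPKM) could not be tested this way because an error was missing. The call of Col18a1 in E13.5m and not in E13.5f is therefore not shown to be a difference between them.

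The genes that process, bind or cleave collagens and laminins were given by 4 lists. The genes that fold and modify collagen chains reached 1 FPKM in shares near those of all entries: 15 of 30 collagen processing genes did so at E9.5, 15 at E11.5, 16 in E13.5f and 14 in E13.5m. The highest was P4hb, the beta subunit of the prolyl hydroxylase, which also acts as a general protein disulfide isomerase, at 366, 463, 832 and 648 FPKM. Of the tested genes 1 was called higher and 1 lower of 19 from E9.5 to E11.5, 3 and 1 of 19 to E13.5f, and 1 and 1 of 16 to E13.5m, beside the 5.63, 12.0 and 4.88% of all tested genes called in either direction, which are also the background for the lists below. Crtap, a part of the prolyl 3-hydroxylation complex, was called higher at both of the first steps, from 9.31 to 42.7 and then 113 FPKM, with log2 ratios of 2.20 ± 0.63 and 1.40 ± 0.46. Relative to the median of each table the differences were 1.88 and 1.21, which did not pass (adjusted p = 0.0593 and 0.0654, against 0.0164 and 0.0262 by the authors). Plod1, a lysyl hydroxylase, rose from 13.6 FPKM at E11.5 to 49.0 FPKM in E13.5f (log2 ratio 1.85 ± 0.44). In the same comparison P4ha3 was called higher (0.0785 to 1.91 FPKM) and Adamts14 lower (3.44 to 0.884 FPKM). P4ha2 (6.04 to 39.7 FPKM) and P3h1 (9.84 to 34.7 FPKM) had no completed test there despite their levels, so they are outside these counts. Loxl3 was called lower from E9.5 to E11.5 (1.92 to 0.123 FPKM). Relative to the median P4ha3, Adamts14 and Loxl3 passed (adjusted p = 0.0198, 0.0252 and 0.0236, against 0.0130, 0.0431 and 0.0414 by the authors). Serpinh1, the collagen chaperone HSP47, rose from 91.3 FPKM at E11.5 to 219 FPKM in E13.5m (1.26 ± 0.37), where Sparc, a collagen-binding matrix protein, fell from 113 to 29.6 FPKM.

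In Tet1-KO 3 of 27 tested collagen processing genes were called lower and 0 higher, beside 5.48% of all genes called lower. P4hb fell from 873 FPKM in wild type to 487 FPKM (log2 ratio -0.84 ± 0.19, adjusted p = 0.000807 in the authors' deposited table), Plod1 from 51.1 to 26.5 FPKM, and Plod2, another lysyl hydroxylase, from 28.9 to 14.0 FPKM. Serpinh1 was at 151 FPKM in wild type against 154 in Tet1-KO. Among 15 tested basement membrane partners Ntn4, a laminin-related netrin, was called lower, from 0.230 to 0.00876 FPKM. Relative to the table's median none of these 4 passed, with adjusted p = 0.165 for P4hb, 0.380 for Plod1, 0.325 for Plod2 and 0.0994 for Ntn4, against 0.000807, 0.0483, 0.0433 and 0.0454 by the authors. The log2 ratio went from -0.84 to -0.46 for P4hb, from -0.95 to -0.57 for Plod1 and from -1.04 to -0.66 for Plod2, while for Ntn4 it stayed about as large (-4.71 and -4.33).

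Of the other basement membrane partners, Nid2, a nidogen that links laminin to collagen IV, was at 36.1 FPKM at E9.5, 26.5 at E11.5, 13.7 in E13.5f and 9.41 in E13.5m, with no call. Npnt, the integrin ligand nephronectin, fell from 39.3 FPKM at E9.5 to 18.1 FPKM at E11.5, while Nid1 rose from 0.0192 to 0.648 FPKM; these were the 2 called of 10 tested. Smoc2, a calcium-binding matrix protein, rose from 0.237 to 2.24 FPKM to E13.5f, the 1 called of 9. From E11.5 to E13.5m 0 of 8 were called.

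Among the receptors, Itgb1, the beta 1 chain of most collagen and laminin receptors, was at 23.4, 19.3, 19.5 and 10.9 FPKM over the 4 stage groups and was not called. Itga6, which encodes the integrin alpha 6 chain that binds laminin, rose from 0.547 FPKM at E11.5 to 3.77 FPKM in E13.5f (log2 ratio 2.78 ± 0.84, adjusted p = 0.0137 in the authors' deposited table), the 1 called of 9. Sdc4, a syndecan, rose from 7.03 FPKM at E9.5 to 34.9 at E11.5 and then to 148 FPKM in E13.5m. Sdc1, another syndecan, fell from 54.8 to 18.7 FPKM in E13.5m, and Lair1, an inhibitory collagen receptor of immune cells, rose from 0.0788 to 1.44 FPKM there. None of the 15 receptors tested in Tet1-KO was called.

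Of the matrix proteases and their inhibitors, Mmp14, a membrane-anchored collagenase, fell from 4.90 FPKM at E9.5 to 0.133 at E11.5 and rose to 1.72 FPKM in E13.5f. Mmp2, the gelatinase that Mmp14 activates, rose from 1.42 to 7.11 FPKM to E13.5f, and the inhibitor Timp2 from 0.166 to 3.40 FPKM. These were the 3 called of 9 tested. Timp1, another inhibitor, fell from 12.3 FPKM at E11.5 to 1.46 FPKM in E13.5m, the 1 called of 10, and 0 of 15 were called in Tet1-KO. In E13.5f Timp1 was at 2.65 FPKM, lower than at E11.5 as well, but its test was not completed there.

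**Figure D5:**
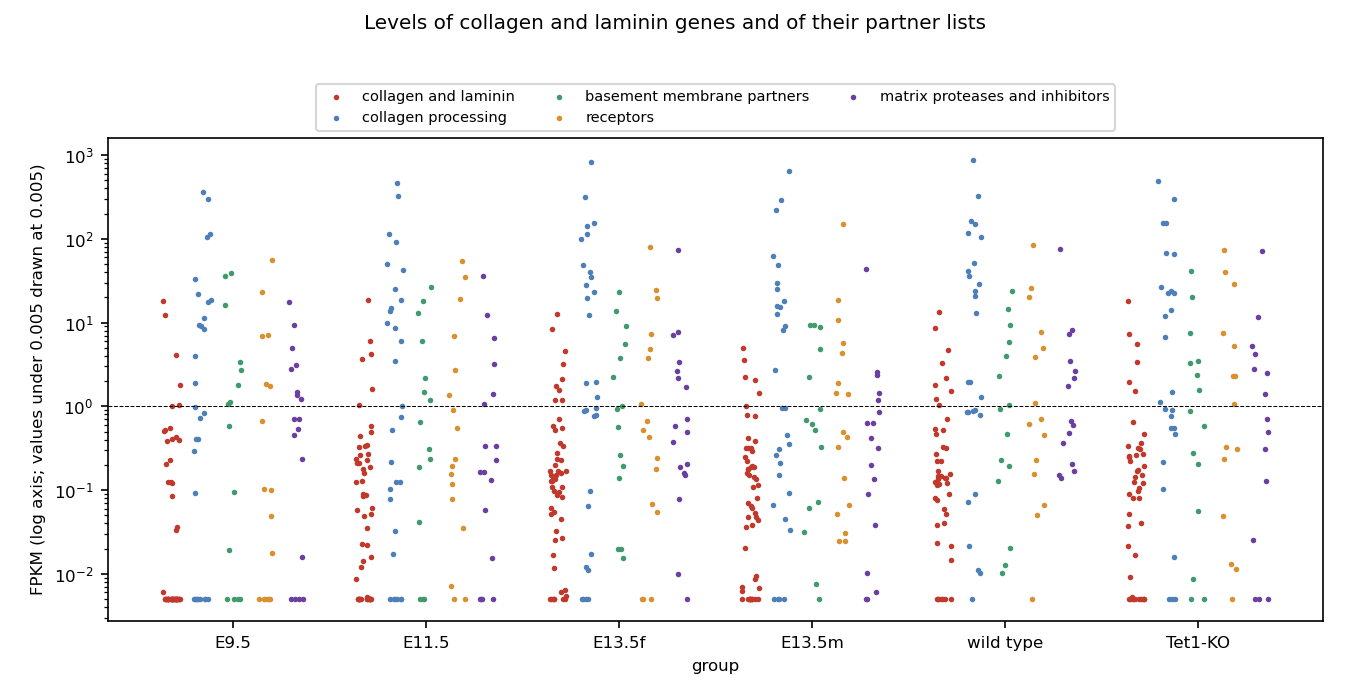
Level in FPKM on a log axis of each collagen and laminin gene (red) and of each gene in the 4 partner lists, for the 6 groups; each point is 1 gene, values under 0.005 are drawn at 0.005, and the dashed line marks 1 FPKM. Most red points lie under the line in every group, while collagen processing genes reach the highest levels, with P4hb at 832 FPKM in E13.5f.

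Markers of other cell types moved between the groups, and they are given here because collagens and laminins are also made by such cells. The mesenchyme and fibroblast list without Sparc, its highest gene, summed to 2.44 FPKM at E9.5, 1.92 at E11.5, 1.3 in E13.5f and 1.65 in E13.5m. Of its 12 genes 6 were listed at 0 at E9.5 (Twist2, Prrx1, Dcn, Lum, Postn and Tcf21), 2 at E11.5, 4 in E13.5f and 3 in E13.5m. The sum hides opposite moves. Pdgfrb went from 1.27 FPKM at E9.5 to a listed 0 at E11.5. Lum (0.651 FPKM), Nr2f2 (0.495), Prrx1 (0.120), Postn (0.0628) and Tcf21 (0.0601) were highest at E11.5, as were Col1a1, Col1a2 and Col3a1. Others were highest elsewhere, such as Twist1 at E9.5 (0.564 FPKM) and Dcn in E13.5m (0.852 FPKM). The endothelial list without Pecam1 summed to 0.233, 11.2, 1.56 and 1.73 FPKM, with 6, 4, 2 and 2 of 10 genes at 0. It was highest at E11.5, where Col1a1, Col1a2 and Col3a1 were also highest, but Esam (8.81 FPKM) and Tek (1.43 FPKM) made up most of the sum there, while Kdr, Tie1, Emcn and Robo4 were listed at 0. The female gonad soma list of 7 genes summed to 3.87, 3.17, 15.1 and 12.2 FPKM, and the blood list to 1899, 27.7, 6.55 and 36.6 FPKM. The male gonad soma list of 11 genes summed to 11.1, 25.3, 23.4 and 25.4 FPKM, so it was near level from E11.5 on. Without Aard, its highest gene, the sums were 1.39, 4.23, 4.49 and 18.0 FPKM. These were highest in E13.5m, where Col18a1 was called lower. Aard fell from 21.1 FPKM at E11.5 to 7.36 in E13.5m, and Cldn11 from 1.83 to 0.767, neither called. Amh, the Sertoli cell hormone, was called higher there (0.126 to 3.92 FPKM from E11.5). Rspo1 of the female list was called higher there too (0.460 to 7.21 FPKM from E11.5), and it made up most of that list's sum in E13.5m. Foxl2 and Wnt4 of the female list were listed at 0 in E13.5m. Hsd3b1 (0 to 3.58 FPKM) and Cyp11a1 (0.970 to 5.57 FPKM), steroid enzymes, were not called. In Tet1-KO, where Lama1 was called lower, the mesenchyme genes with an entry (6 of 12) summed without Sparc to 0.521 FPKM against 1.08 FPKM in wild type. Pdgfra and Pdgfrb, growth factor receptors of mesenchyme, were called lower there (0.200 to 0.00478 FPKM and 0.311 to 0.00584 FPKM). Relative to the median Pdgfrb passed (adjusted p = 0.0280) and Pdgfra did not (0.0611), against 0.0113 and 0.0264 by the authors. Nr2f2 was lower too (0.178 to 0.00784 FPKM), while Twist1 (0.385 to 0.432 FPKM) and Fbn1 (0.00768 to 0.0700 FPKM) were higher, none of them called. Other lists did not all go the same way: the female gonad soma list was at 15.7 FPKM in wild type against 21.1 in Tet1-KO (without Irx3, 6.87 against 12.3), and the blood genes with an entry (6 of 11) at 4.67 against 1.19. The endothelial list without Pecam1 was at 1.40 against 1.47 FPKM. The male list without Aard was at 4.58 against 4.0, and with Aard at 23.5 against 35.6. No gene of these 4 lists was called. The part of these cells in the levels of the collagen and laminin genes was not tested.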

How the data were processed

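Per the submitters' processing notes, the tools were TopHat 1.3.1 with Bowtie, then Cuffdiff (1.2.1 for the stages, 1.0.3 for the knockout) with Cufflinks, on build mm9. There are 4 tables that the authors deposited with 1 pooled FPKM value per group, p-values, adjusted p-values (q-values or FDR) and, in the 3 stage tables, a test statistic (a score), per the file headers. RNA came from few cells (400 to 5000, or 500 to 2000 for Tet1-KO and its wild type) and was amplified, per the labels' protocols. Depth is not given by these values.

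Groups came from titles and genotypes. Stage tables were put on 1 scale through their E11.5 columns (factors 0.870 and 0.976); tests stayed within tables, apart from E13.5m against E13.5f, where the shared E11.5 error is counted in both ratios. Calls were the authors' at 0.05 among completed tests. The SE of a log2 ratio is its size over the test statistic (for the knockout, over the normal quantile of the p-value), given where the divisor exceeded 0.05. List medians are on the log2(FPKM + 1) scale, so low genes appear to change less.

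The members and lists were chosen with earlier results of these data known. Of the members, 1 is counted but not reported here by name or in the heat map. The rule named genes called in any table, members at 5 FPKM or more, and called genes of the partner lists (collagen processing, basement membrane partners, receptors, matrix proteases and inhibitors), up to 4 per list and table; other genes named were chosen after their values were seen, to show a role group. Marker lists covered mesenchyme, endothelium, male and female gonad soma, coelomic epithelium, hindgut, blood and germ cells; over E9.5, E11.5, E13.5f and E13.5m, coelomic epithelium without Krt18 summed to 23.7, 9.90, 10.9 and 13.9 FPKM (Krt18 itself was at 37.1, 20.1, 68.6 and 21.2, called higher in E13.5f) and hindgut to 22.3, 9.02, 17.4 and 16.3. Promoters came from RefSeq (GRCm38.p6). The alternatives tried were change relative to the median, a pseudocount of 0.1, a minimum of 1 FPKM, readjusted p-values and a threshold of 0.01. Scripts were tested on simulated data and ran in Python 3.11.15 with pandas 2.3.3, numpy 2.4.6, matplotlib 3.10.9 and scipy 1.17.1.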

Additional observations from a re-analysis of the deposited data

How the results depend on the processing

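At a threshold of 0.01 the number of collagen and laminin genes called was 0 from E9.5 to E11.5, 1 (Col9a3) from E11.5 to E13.5f and 0 in Tet1-KO. With a minimum of 1 FPKM in a group it was 0 from E9.5 to E11.5, since Col15a1 lies under it. Relative to each table's median it was 2 from E9.5 to E11.5 (Col15a1 and Lamb1), 1 from E11.5 to E13.5f, where Lama1 has no SE and is not tested, and 0 in Tet1-KO. The median change relative to all tested genes was -0.42 from E9.5 to E11.5, and it turned sign to -0.13 in E13.5f and to 0.20 in Tet1-KO. With a pseudocount of 0.1 it was 0.20 in E13.5f and -0.63 in E13.5m, and over members at 1 FPKM or more it was -0.55 in E13.5m; the cause was not tested. Of 31 alternatives for counts and medians, 18 kept the side of the threshold or moved little. The call of Col18a1 in E13.5m held under each alternative run, and that of Lama1 in Tet1-KO was lost at 0.01 and relative to the median. Over all genes the share of calls that were higher went from 65.9 to 40.6% from E9.5 to E11.5, from 77.7 to 62.7% in E13.5f and from 11.0 to 53.1% in Tet1-KO when centred on the median. No paired analysis was possible because the tables carry 1 pooled value per group and no replicate columns, and leaving out a replicate could not be run for the same reason. Depth in reads is unknown, so differences among genes under 1 FPKM are the least certain.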
